A study of Mus musculus with 24 samples.

Results

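The suppressor of cytokine signalling (SOCS) family and Cish were examined as 8 genes, Socs1 to Socs7 and Cish, chosen by gene symbol with 1 line per gene identifier. All 8 were found among 22996 genes of the bone marrow-derived macrophage (BMDM) table and among 54380 genes of the J774.1 table. Polyadenylated RNA was sequenced from 24 libraries in 8 groups of 3. BMDMs came from male C57BL6/N mice of 6 to 12 weeks and were grown out with medium conditioned by L929 cells. They were treated with siRNA to Ctbp1, to Ctbp2 or of a control sequence, each followed by vehicle (PBS) or by 100 ng/ml lipopolysaccharide (LPS) for 4 h. J774.1, a macrophage line from a female BALB/c mouse, was wildtype or Ctbp1/2 double knockout, and every J774.1 library used here had the same LPS treatment, so the line gives no resting level. Ctbp1 and Ctbp2 encode C-terminal binding proteins, nuclear corepressors, and the design asks how they affect inflammatory gene expression. The labels do not say whether the knockout is 1 clone or which sequence was edited, and they call the libraries biological triplicates without naming the animals or cultures, so p-values measure the spread between these libraries.

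SOCS proteins end the response to cytokines. Cytokine receptors activate Janus kinases (JAKs), which phosphorylate STAT transcription factors, and STATs switch on several SOCS genes. The SOCS proteins then bind kinases or receptors through an SH2 domain and recruit an Elongin-Cullin5 ubiquitin ligase through the SOCS box. In macrophages LPS induces cytokines that signal back on the same cells, and SOCS1 and SOCS3 are well known brakes on this loop. SOCS1 and SOCS3 can also inhibit JAK activity directly. CIS, encoded by Cish, and SOCS2 are best known for limiting receptors that use STAT5. SOCS4 to SOCS7 act mainly on receptor tyrosine kinase and insulin signalling.

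The sequences just upstream of the transcription start of 3 strongly induced members are shown because a STAT or interferon response element there is part of the textbook circuit. The RefSeq table on GRCm38.p6 held 4 of the 8 members (Socs1, Socs3, Socs4 and Cish), and the 250 bases before each start were searched on both strands. The search used the STAT-binding GAS element TTCNNNGAA, found in 7.02% of 32851 promoters, the interferon response element GAAANNGAAA, found in 2.98%, and the NF-kB consensus, found in 3.9%. Capitals mark the matched letters in each run, written 5′ to 3′ on the strand of the gene.
Socs3, chr11:117969367-117969616, minus strand: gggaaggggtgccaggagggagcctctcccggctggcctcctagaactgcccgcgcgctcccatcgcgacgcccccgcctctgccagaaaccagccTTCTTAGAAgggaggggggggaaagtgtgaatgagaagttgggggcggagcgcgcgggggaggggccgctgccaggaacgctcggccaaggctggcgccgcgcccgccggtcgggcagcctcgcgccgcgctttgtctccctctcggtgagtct
Socs1, chr16:10785537-10785786, minus strand: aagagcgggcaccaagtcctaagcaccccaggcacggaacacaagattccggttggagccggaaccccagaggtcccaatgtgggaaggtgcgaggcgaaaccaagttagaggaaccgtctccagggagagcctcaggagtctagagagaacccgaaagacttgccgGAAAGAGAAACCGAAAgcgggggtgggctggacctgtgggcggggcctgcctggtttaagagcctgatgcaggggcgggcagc
Cish, chr9:107296409-107296658, plus strand: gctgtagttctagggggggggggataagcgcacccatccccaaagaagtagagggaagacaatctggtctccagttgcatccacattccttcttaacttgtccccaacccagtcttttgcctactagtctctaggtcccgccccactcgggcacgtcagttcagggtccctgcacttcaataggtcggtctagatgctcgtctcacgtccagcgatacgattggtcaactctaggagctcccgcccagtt
Socs3 held 1 GAS match, whose last base lay 146 bases before the start. Socs1 held 2 interferon response element matches that overlap each other, with last bases 74 and 68 bases before the start. None of the 3 motifs matched in the window of Cish or Socs4, and the NF-kB consensus matched in none of the 4. These matches describe letters in a window and do not show that a factor binds there.

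Levels are given as TPM, the share of a library's transcripts after scaling by transcript length, which can be compared between genes. At rest the family was carried by Socs6, Socs5, Socs4 and Socs7. Socs6, an adaptor linked to KIT and insulin receptor signalling, was the highest member in all 9 vehicle libraries, at 31.6 to 37.9 TPM with a median of 33.7. Socs5, which restrains epidermal growth factor and interleukin-4 signalling, followed at 16.3 to 18.8 TPM. Socs4, its closest relative, stood at 13.6 to 16.5 TPM, and its range met that of Socs5. Socs7, an adaptor in insulin signalling, was lower, at 8.87 to 10.6 TPM. Socs1, Socs3 and Cish were each under 1 TPM in all 9 vehicle libraries. The 8 members summed to 77.6 ± 1.97 TPM (SD, n = 3, as for all group values that follow) with control siRNA and vehicle, of which Socs6 made up 43.7%.

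Socs2, which limits growth hormone signalling, was barely measured. It ran from 0 to 0.528 TPM in the vehicle BMDM libraries and from 0.22 to 0.996 TPM with LPS. In J774.1 it was listed at 0 in 3 of 6 libraries and reached 0.371 TPM. It fell under the minimum mean of 1 TPM in both tables and was not tested, so each comparison below covers 7 of the 8 members.

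**Figure D1:**
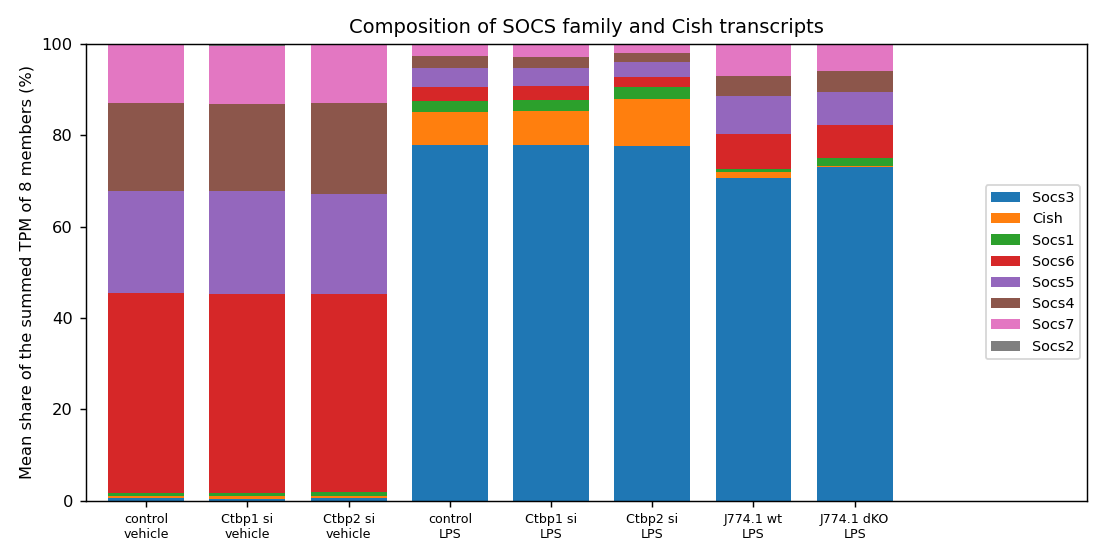
Mean share of each member in the summed TPM of the 8 members (vertical axis, percent), by group of 3 libraries (horizontal axis). Socs6 holds 43.7% with control siRNA and vehicle, and Socs3 holds 78% with control siRNA and LPS.

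LPS changed the make-up of the family in control siRNA cells. Differences are on the log2 scale of TPM + 1, with limma's test and Benjamini-Hochberg adjustment over 12146 genes, and a gene was called at an adjusted p under 0.05. Of the 7 members tested, 5 rose and 2 fell with LPS, on a background of 72.2% of all genes called. Calls upward made up 18.6% of the genes and calls downward 53.6%, so a call alone says little about these members. Their median log2 difference was 0.27, against −0.29 over all genes tested. Socs1, Socs3 and Cish, under 1 TPM in all 9 vehicle libraries, passed the minimum mean of 1 TPM through their levels with LPS. Their LPS calls also held in the fit with no minimum.

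Socs3, the feedback inhibitor of interleukin-6 type receptors, read 0.544, 0.621 and 0.46 TPM in the control siRNA vehicle libraries. With LPS it read 414, 423 and 298 TPM in replicates 1, 3 and 4. Every LPS library stood far above every vehicle library, and the ratio of the mean TPM was 698. The log2 difference was 7.93 ± 0.11 (SE), with an adjusted p of 4.98e-18. Socs3 alone then made up 78% of the summed TPM of the family.

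Cish, the STAT5-responsive member, read 0.147, 0.308 and 0.58 TPM with vehicle. With LPS it read 39 TPM in replicate 1, 49.4 in replicate 3 and 18.5 in replicate 4, the widest relative spread among the induced members. The rise was far larger than that spread, with a log2 difference of 4.67 ± 0.28 (SE) and an adjusted p of 4.6e-10. By group mean Cish then ranked just after Socs3, at 7.1% of the sum.

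Socs1, a direct JAK inhibitor, went from 0.381, 0.549 and 0.448 TPM with vehicle to 14.8, 14.6 and 8.52 TPM with LPS. The groups lay far apart, with a log2 difference of 3.19 ± 0.16 (SE) and an adjusted p of 2.69e-11. Its level with LPS, 12.6 ± 3.56 TPM, was in the range of the constitutive members. With a pseudocount of 5 the log2 differences of Cish and Socs1 were 2.84 and 1.67, both called.

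Socs6 fell as the inducible members rose. It read 33.7, 33.7 and 34.4 TPM with vehicle and 12.2, 16 and 13.6 TPM with LPS, which left 41.1% of the resting mean. The log2 difference was −1.23 ± 0.11 (SE), with an adjusted p of 3.36e-08.

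The other constitutive members moved little. Socs5 went from 17.3 ± 0.87 to 20.1 ± 1.2 TPM, a log2 difference of 0.21 with an adjusted p of 0.0115. Socs7 went from 9.83 ± 0.892 to 12 ± 0.963 TPM, a difference of 0.27 with an adjusted p of 0.0129. Socs4 went from 15 ± 1.09 to 12.3 ± 0.94 TPM, a difference of −0.27 with an adjusted p of 0.0108. Each of these calls was lost without certain single libraries. Socs5 was not called without LPS replicate 3 (0.17) or vehicle replicate 1 (0.17). Socs7 was not called without LPS replicate 3 (0.22) or vehicle replicate 4 (0.20). Socs4 was not called without LPS replicate 1 (−0.23) or vehicle replicate 4 (−0.23).

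The size of these small changes depends on the scale. TPM sum to a fixed total in each library, and LPS moved the median of all genes by −0.29. Median-of-ratios scaling shifted that median by 0.30, and the calls then split into 4207 higher and 3830 lower in place of 2258 higher and 6514 lower. Under that scaling Socs4 read 0.03 and was not called, while Socs1, Socs3, Socs5, Socs6, Socs7 and Cish kept their direction and call, with Socs5 at 0.52 and Socs7 at 0.57. In the authors' deposited table Socs4 differed by 0.03 with an adjusted p of 0.8. The other 6 tested members passed 0.05 there in the directions given above.

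**Figure D2:**
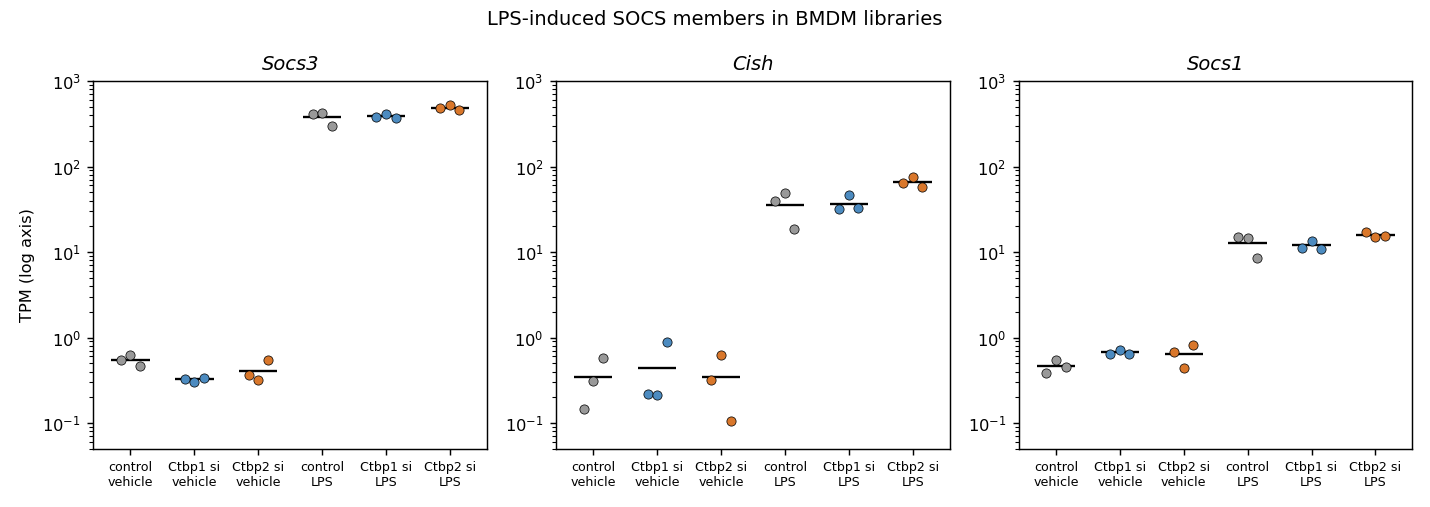
TPM of Socs3, Cish and Socs1 (vertical axis, log scale) in each BMDM library by group, with points for libraries and bars for group means. All 9 vehicle libraries lie under 1 TPM for each gene, and the LPS libraries reach 523 TPM for Socs3, 75.5 for Cish and 17 for Socs1.

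**Figure D3:**
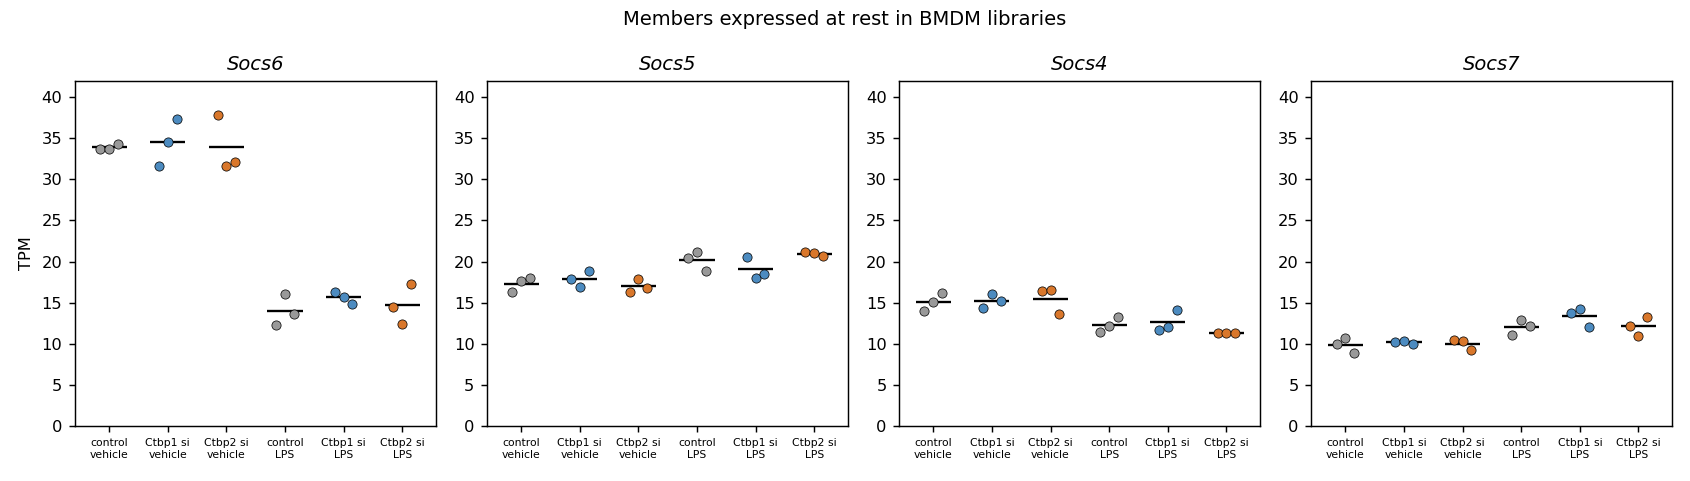
TPM of Socs6, Socs5, Socs4 and Socs7 (vertical axis) in each BMDM library by group, with points for libraries and bars for group means. Socs6 lies at 31.6 to 37.9 TPM in vehicle libraries and at 12.2 to 17.3 TPM in LPS libraries.

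The other siRNA arms were tested in the same way. With Ctbp1 siRNA, 4 members rose and 2 fell with LPS, on a background of 70.5% called, 19.4% higher and 51.1% lower. Socs3 read 0.326, 0.306 and 0.339 TPM with vehicle and 381, 411 and 369 TPM with LPS. Socs6 went from 34.5 ± 2.87 to 15.6 ± 0.723 TPM. Socs5 was the member not called, at 17.9 ± 1 against 19 ± 1.39 TPM (adjusted p = 0.255), and it was called under median-of-ratios scaling, at 0.37. Socs4 was called lower at −0.26 (adjusted p = 0.0167) but read 0.02 under that scaling. It also lost its call without LPS replicate 1 (−0.21), LPS replicate 3 (−0.23) or vehicle replicate 3 (−0.22).

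With Ctbp2 siRNA, 5 members rose and 2 fell with LPS, on a background of 73.9% called, 18.6% higher and 55.3% lower. Socs3 read 0.362, 0.32 and 0.54 TPM with vehicle and 484, 523 and 463 TPM with LPS. Cish read 0.316, 0.625 and 0.104 TPM with vehicle and 64.1, 75.5 and 57.3 TPM with LPS. Socs6 went from 33.9 ± 3.42 to 14.7 ± 2.45 TPM. Socs4 was called lower at −0.42 (adjusted p = 0.000462) and read −0.08 under median-of-ratios scaling, where it was not called. Socs7 was called higher at 0.26 (adjusted p = 0.0157), and this call was lost without LPS replicate 4 (0.20) or vehicle replicate 4 (0.20).

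The rest of the JAK-STAT circuit was read from a list of 76 genes in 7 roles. With LPS in control siRNA cells, 36 of the 64 measured genes rose and 14 fell, with a median of 0.37, beside 18.6% of all genes called higher, 53.6% called lower and a median of −0.29. Under median-of-ratios scaling the count was 49 higher and 9 lower. Among the genes called lower, Csf2ra, Il10, Il10rb, Jak3 and Rnf7 did not stay so under that scaling, at 0.12, −0.25, 0.00072, −0.04 and 0.21. Rnf7 was also not called without control LPS replicate 4 (−0.11, adjusted p = 0.0806). Among 10 ligands 8 rose and 1 fell. Il6, the ligand of the gp130 pathway that SOCS3 restrains, was listed at 0 in all control vehicle libraries and read 65.2 to 209 TPM with LPS (adjusted p = 4.24e-12). Il27 rose by 6.33 (adjusted p = 3.38e-14) and Il12b by 6.27 (adjusted p = 7.84e-12).

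Receptors moved both ways, with 10 of 19 rising and 6 falling. Il6ra, the interleukin-6 binding chain, fell from 26.2 ± 0.452 to 2.39 ± 0.901 TPM. Il6st, which encodes gp130, fell from 73.2 ± 2 to 19.3 ± 3.79 TPM. Il15ra rose by 1.67 (adjusted p = 1.56e-08).

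Of 4 kinases 3 rose and 1 fell. Jak2, which serves many cytokine receptors, went from 19.6 ± 0.921 to 158 ± 20 TPM. Tyk2 rose by 0.86 (adjusted p = 4.54e-11), and Jak3 fell by 0.35 (adjusted p = 0.00139) but was not called under median-of-ratios scaling, at −0.04. Among 7 STAT genes Stat5a rose from 12.9 ± 0.596 to 58.5 ± 12.9 TPM, Stat2 rose by 0.47 (adjusted p = 0.000326) and Stat6 fell by 0.52 (adjusted p = 7.15e-09).

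The ligase that SOCS boxes recruit changed less. Eloc rose by 0.42 (adjusted p = 1.99e-05), Rnf7 was called lower at −0.11 (adjusted p = 0.0475) but higher at 0.21 (adjusted p = 0.00256) under median-of-ratios scaling, and the other 3 of its 5 genes were not called. Among 10 other inhibitors 6 rose and 3 fell. Pias3 fell from 30 ± 5.12 to 11.8 ± 1.29 TPM and Sh2b3 from 74.3 ± 3.83 to 31.6 ± 3.71 TPM, while Usp18, a brake on interferon receptors, rose by 1.21 (adjusted p = 1.93e-06). Of 9 cytokine targets 6 rose and 1 fell, led by Cxcl10 at 7.34 (adjusted p = 5.66e-11), Gbp2 at 4.37 (adjusted p = 1.07e-14) and Isg15 at 3.53 (adjusted p = 6.75e-12).

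Genes whose log2(TPM + 1) followed a member most closely over the 18 BMDM libraries were ranked among 7564 genes. The 18 points form a vehicle and an LPS cluster, so the coefficient mainly records that split and is a description. Nearest to Socs3 were Nfkbia, Icam1 and Nfkb2, with Pearson r from 0.9996 to 0.9998. Nearest to Socs1 were Rap2b, Il6 and Shisa3, with r near 0.997. Nearest to Cish were Edn1, Il1a and Csf2, with r from 0.9963 to 0.9967. Socs6, which fell, had Kxd1, Hpse and Gadd45g as its nearest genes, with r from 0.985 to 0.987. For the small movers the nearest were Dock11, Ccnh and Ide for Socs4, Vezf1, Nr3c1 and Chic2 for Socs5, and Stk3, Fam122a and Coq10b for Socs7, with r from 0.894 to 0.944.

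The siRNAs lowered their targets. Ctbp1 read 55.5 to 59.4 TPM with Ctbp1 siRNA and vehicle against 130 to 143 TPM with control siRNA, and 48.1 to 56 against 117 to 131 TPM with LPS. Ctbp2 read 16.9 to 20.4 TPM with Ctbp2 siRNA and vehicle against 51.6 to 54.3 TPM, and 10.4 to 13.8 against 37 to 40.3 TPM with LPS. No library of a knockdown group overlapped the control range of its target. Summed macrophage markers ran from 11380 to 14730 TPM over the 18 libraries. Summed neutrophil markers ran from 84.8 to 198 TPM and dendritic markers from 113 to 172 TPM, lymphocyte and mast cell markers stayed under 5 TPM, and no erythroid marker was in the BMDM table. Summed stromal markers were at most 0.152 TPM in vehicle and 4.11 to 7.59 TPM in LPS libraries, and their part in the LPS results was not tested. In bulk RNA, fewer cells of a type and less RNA per cell cannot be told apart.

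Control siRNA LPS replicate 4 stood apart from the other LPS libraries. Over 334 genes induced at least 4-fold in the Ctbp1 siRNA libraries, its median was −0.21 from the control LPS mean on the log2 scale, against 0.09 and 0.13 for replicates 1 and 3. It lay below that mean in 292 of the 334 genes, and it was the lowest of its group for Socs1, Socs3 and Cish. Comparisons of knockdown with control siRNA in LPS libraries are given below with and without it for Socs1, Socs3 and Cish, as are the counts of pathway genes.

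With Ctbp1 siRNA no difference in the family passed the test. No member was called in vehicle libraries, on a background of 0.107% of genes called, nor in LPS libraries, on a background of 0.0576%. At an unadjusted p under 0.05 the limma count was also 0 in both, and the authors' deposited table called 0 members in both, with no adjusted p for Socs1 and Socs2 in vehicle. In vehicle libraries Socs3 read 0.306 to 0.339 TPM against 0.46 to 0.621 TPM (adjusted p = 0.572). Socs1 read 0.645 to 0.723 TPM against 0.381 to 0.549 TPM (adjusted p = 0.819). Both genes and Cish were under 1 TPM in these libraries and entered the test through their levels with LPS. With LPS Socs3 read 387 ± 21.6 TPM with Ctbp1 siRNA and 378 ± 69.7 TPM with control siRNA, a log2 difference of 0.05 with a 95% interval from −0.17 to 0.27. For Cish the levels were 36.9 ± 7.78 and 35.6 ± 15.7 TPM, and the interval ran from −0.47 to 0.74. Socs6 stood at 0.16 (adjusted p = 0.799), and at 0.08 without control LPS replicate 1 and 0.26 without control LPS replicate 3. Without control LPS replicate 4 no member was called either, and the estimates were −0.11 for Socs3 (adjusted p = 0.537), −0.26 for Cish (adjusted p = 0.645) and −0.28 for Socs1 (adjusted p = 0.294). Summed macrophage markers were lower with Ctbp1 siRNA than with control siRNA, without overlap, at 12590 to 13230 against 14010 to 14550 TPM with vehicle and 11380 to 13570 against 13900 to 14630 TPM with LPS. None of the 8 macrophage markers was at 0 throughout a BMDM group, and their part in the results was not tested.

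With Ctbp2 siRNA and vehicle, no member was called either, on a background of 0.568%, and 0 reached an unadjusted p under 0.05. The authors' deposited table called 0. Socs6 read 33.9 ± 3.42 TPM with Ctbp2 siRNA and 33.9 ± 0.387 TPM with control siRNA. Socs1, Socs3 and Cish, under 1 TPM in these libraries, entered the test through their levels with LPS. Socs1 and Socs3 differed by 0.17 and −0.13. With a pseudocount of 0.1 these differences were 0.40 (adjusted p = 0.543) and −0.36 (adjusted p = 0.373).

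With Ctbp2 siRNA and LPS the 3 inducible members had higher levels than with control siRNA, but none passed the adjusted threshold, on a background of 1.94% of genes called. The genes called were 63 higher and 173 lower, and 143 higher and 75 lower under median-of-ratios scaling, which called 0 members too. Cish, Socs3 and Socs1 were the 3 members at an unadjusted p under 0.05, a level reached by 2131 of all 12146 genes. Cish read 64.1, 75.5 and 57.3 TPM with Ctbp2 siRNA, all above the highest control library at 49.4 TPM. Its log2 difference was 0.96 ± 0.28 (SE), with a 95% interval from 0.36 to 1.57 and an adjusted p of 0.101. Socs3 read 484, 523 and 463 TPM against a control maximum of 423 TPM, a difference of 0.39 with an interval from 0.16 to 0.61 and an adjusted p of 0.0714. Socs1 read 17, 15.2 and 15.6 TPM against a control maximum of 14.8 TPM, a difference of 0.35 with an adjusted p of 0.274. How many of all genes separated in this way was not counted. Summed dendritic markers were also higher with Ctbp2 siRNA than with control siRNA, without overlap, at 158 to 172 against 146 to 147 TPM with LPS and 134 to 139 against 123 to 124 TPM with vehicle. In both LPS groups 0 of the 6 dendritic markers were at 0 throughout, and the part of this difference in the results on Cish, Socs3 and Socs1 was not tested.

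How far these differences reached depended on single control libraries. Without control LPS replicate 4, the library that stood apart, the estimates were 0.56 for Cish (adjusted p = 0.301), 0.23 for Socs3 (adjusted p = 0.196) and 0.11 for Socs1 (adjusted p = 0.77). Without control LPS replicate 3, Socs3 at 0.48 (adjusted p = 0.0412) and Cish at 1.24 (adjusted p = 0.0347) were called. With a pseudocount of 5, Socs3 was called (adjusted p = 0.0479). In the authors' deposited table Socs3 was the 1 member called, at 0.44 with an adjusted p of 0.0393, while Cish stood at 0.94 (adjusted p = 0.357) and Socs1 at 0.40 (adjusted p = 0.411).

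The constitutive members differed less with Ctbp2 siRNA and LPS. Socs6 read 14.7 ± 2.45 TPM against 13.9 ± 1.94 TPM, and its interval ran from −0.16 to 0.30. Socs5 differed by 0.06 and Socs7 by 0.01. The Socs4 libraries, at 11.3 TPM each, lay just under the lowest control library at 11.4 TPM, with a difference of −0.11 (adjusted p = 0.573).

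**Figure D4:**
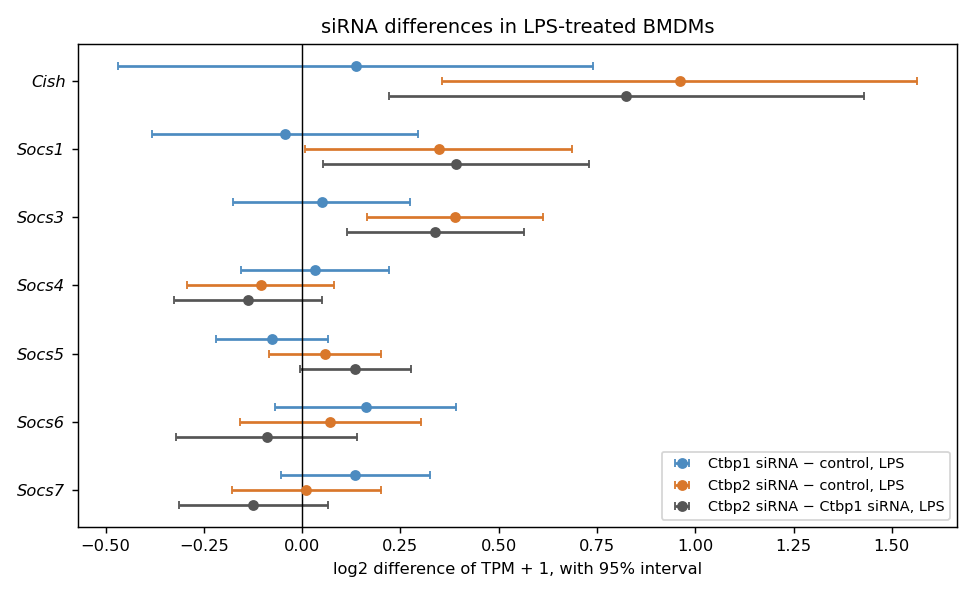
Log2 differences of TPM + 1 with 95% intervals (horizontal axis) for the 7 members tested, in 3 comparisons of LPS-treated BMDM groups. The intervals for Cish, Socs1 and Socs3 lie above 0 for Ctbp2 siRNA against control siRNA and against Ctbp1 siRNA, and none of these passed the adjusted threshold.

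The knockdowns were also compared directly. In vehicle libraries no member was called between Ctbp2 and Ctbp1 siRNA, on a background of 0.617%, and 0 reached an unadjusted p under 0.05. In LPS libraries none was called on a background of 3.59%. An unadjusted p under 0.05 was reached by 3 members and by 2700 of all 12146 genes. Here Cish was higher by 0.82 with Ctbp2 siRNA (adjusted p = 0.11), Socs3 by 0.34 (adjusted p = 0.0789) and Socs1 by 0.39 (adjusted p = 0.164). Socs4 and Socs5 differed by −0.14 (adjusted p = 0.381) and 0.14 (adjusted p = 0.246). This comparison shares the Ctbp2 siRNA LPS libraries with the one against control siRNA and is no independent repeat of it. The shared estimate of spread drew on all 18 libraries. Without control LPS replicate 4, which is in neither group, Cish, Socs3 and Socs1 were called, with adjusted p from 0.00878 to 0.0355.

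Whether knockdown changed the LPS response itself was tested as an interaction. For Ctbp1 siRNA no member was called, on a background of 0%, and 0 had an unadjusted p under 0.05. For Ctbp2 siRNA no member was called on a background of 0.0329%. An unadjusted p under 0.05 was reached by 919 of all 12146 genes and by 2 members. These were Socs3, whose LPS response was larger by 0.52 (adjusted p = 0.317), and Cish, larger by 0.96 (adjusted p = 0.573). These estimates were 0.36 (adjusted p = 0.287) and 0.56 (adjusted p = 0.736) without control LPS replicate 4, and no member was called for either siRNA.

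Around the family, Ctbp2 siRNA with LPS changed 6 of the 64 measured JAK-STAT genes, 4 up and 2 down, beside 1.94% of all genes called. The count was 2 up and 1 down without control LPS replicate 4, and 4 up and 0 down under median-of-ratios scaling. Il10, an anti-inflammatory ligand that signals through STAT3, read 4.85 ± 0.907 TPM against 2.96 ± 0.326 TPM, a difference of 0.56 (adjusted p = 0.0466). Il4ra rose by 0.35 (adjusted p = 0.0459), and the targets Il1rn and Bcl3 rose by 0.62 (adjusted p = 0.013) and 0.39 (adjusted p = 0.0128). Elob, a subunit of the SOCS box ligase, fell by 0.21 (adjusted p = 0.0375), and Ptpn6, a phosphatase that dampens JAK signalling, fell by 0.19 (adjusted p = 0.0287). Without control LPS replicate 4, Il10 (0.50, adjusted p = 0.143), Il4ra (0.24, adjusted p = 0.152), Elob (−0.18, adjusted p = 0.133) and Ptpn6 (−0.15, adjusted p = 0.0993) were not called. Elob and Ptpn6 were not called under median-of-ratios scaling either, at −0.14 and −0.11. Csf2, which encodes the STAT5-activating cytokine GM-CSF, was not called, at 64.8 ± 22.7 TPM against 35.4 ± 16.9 TPM (adjusted p = 0.138). Its control libraries spread from 16.5 to 49.1 TPM, and a link to Cish was not tested.

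With Ctbp2 siRNA and vehicle, 2 of the 64 rose, beside 0.568% of all genes called. Il1rn was among them, higher by 0.66 (adjusted p = 0.0171). With Ctbp1 siRNA limma called 0 of the 64 in vehicle and in LPS libraries. An unadjusted p under 0.05 was reached by 8 and 3 of them, beside 1084 and 891 of all 12146 genes. Without control LPS replicate 4, Il6 at −0.83 (adjusted p = 0.000227) and Il12b at −0.69 (adjusted p = 0.0224) were called lower with Ctbp1 siRNA and LPS. Between the knockdowns, Il1rn was higher with Ctbp2 siRNA in vehicle libraries, by 0.61 (adjusted p = 0.0245). In LPS libraries Il10 was higher by 0.52 (adjusted p = 0.0457), and Ifngr1, Elob and Ptpn6 were lower, by −0.16, −0.25 and −0.17. Those 3 were not called under median-of-ratios scaling, at −0.08, −0.16 and −0.08. Between the knockdowns with LPS the count without control LPS replicate 4 was 9 higher and 5 lower in place of 1 and 3. Over all genes that fit called 1050 in place of 436.

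In LPS-treated J774.1 cells, the double knockout raised Socs1 and lowered Cish, Socs5 and Socs7. The 4 calls among 7 members tested stood on a background of 36.1% of 11818 genes, with 23% called higher and 13.2% lower. The member median was −0.17, against 0.05 over all genes. Ctbp1 read 156 to 164 TPM in wildtype and 16.1 to 22.3 TPM in knockout libraries. Ctbp2 read 74.4 to 81.4 and 61.5 to 64.1 TPM, so most of its RNA was still measured in the knockout, and the labels give no edited site against which to read this.

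Cish read 3.6, 5.54 and 4.12 TPM in wildtype libraries and 0.932, 1.01 and 1.22 TPM in knockout libraries. Every knockout library lay far under every wildtype one, at 23.9% of the wildtype mean. The log2 difference was −1.39 ± 0.16 (SE), with an adjusted p of 0.000362. The pseudocount sets the size of this value, which was −0.63 with a pseudocount of 5 and −1.95 with 0.1, and the authors' deposited table gave −1.95. Cish was called under every alternative that gave a value.

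Socs1 moved the other way. It read 2.21, 2.39 and 2.67 TPM in wildtype libraries and 4.94, 4.55 and 5.74 TPM in knockout libraries, without overlap. The log2 difference was 0.83 ± 0.11 (SE), with an adjusted p of 0.00103, and the ratio of the mean TPM was 2.1. With a pseudocount of 5 the difference was 0.44.

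Socs3, the most abundant member in this line too, was not called. It read 213, 233 and 226 TPM in wildtype and 210, 232 and 215 TPM in knockout libraries, and the interval of its difference ran from −0.15 to 0.08. The authors' deposited table gave −0.13 for Socs3 with an adjusted p of 0.00201, a call that limma on TPM did not make (adjusted p = 0.619).

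Among the constitutive members Socs5 fell from 26.4, 25.7 and 27 TPM to 20.7, 22.6 and 21.2 TPM, a difference of −0.28 with an adjusted p of 0.00447. Socs7 fell from 23.2, 22.9 and 20.9 TPM to 16.1, 17.9 and 18.3 TPM, a difference of −0.34 with an adjusted p of 0.00675. Neither pair of groups overlapped, and the share of all genes without overlap was not counted. Socs6 read 24.4 ± 0.455 and 21.5 ± 1.42 TPM, a difference of −0.17 that just missed the threshold (adjusted p = 0.0513). It was called without knockout replicate 3 (−0.23), under median-of-ratios scaling (−0.24) and with a minimum of 10 TPM. Socs4 read 13.4 ± 0.171 and 14.2 ± 0.356 TPM and was not called (adjusted p = 0.294). Median-of-ratios scaling changed the balance over all genes from 2713 higher and 1555 lower to 2144 higher and 2295 lower, with the calls of Socs1, Cish, Socs5 and Socs7 kept.

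**Figure D5:**
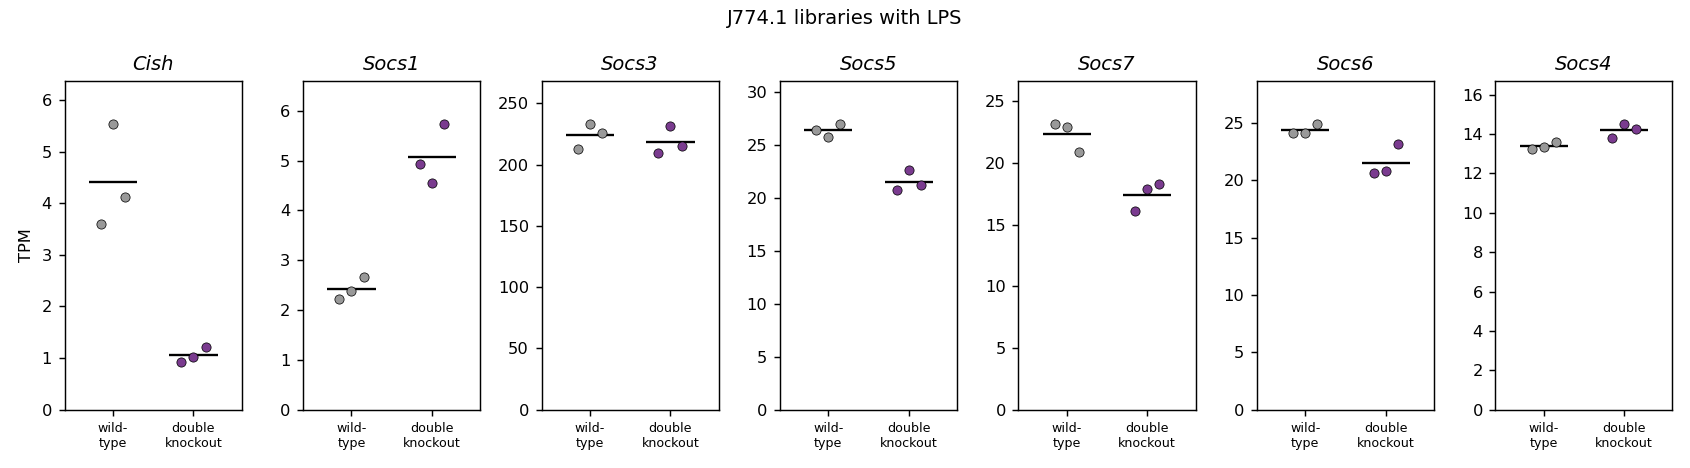
TPM of the 7 tested members (vertical axes, each from 0) in wildtype and Ctbp1/2 double knockout J774.1 libraries with LPS, with points for libraries and bars for group means. Cish drops from 3.6 to 5.54 TPM to 0.932 to 1.22 TPM, Socs1 rises without overlap, and Socs3 overlaps.

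The JAK-STAT genes around these members also differed in the knockout, with 27 of 59 measured genes higher and 12 lower, beside 23% of all genes called higher and 13.2% called lower. Under median-of-ratios scaling the count was 24 higher and 12 lower, and Cul5, Ebi3 and Il2rg were not called. Csf2 fell from 33.3 to 36.9 TPM to at most 0.56 TPM, a difference of −4.84 (adjusted p = 6.27e-07). Lif, a gp130 ligand, fell from 94.7 ± 5.51 to 18.2 ± 1.81 TPM, and Il15 rose from 4.94 ± 1.62 to 25.9 ± 2.21 TPM. In all, 6 of 10 ligands fell and 3 rose.

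Receptors moved one way, with 11 of 15 rising, Il2rg not under median-of-ratios scaling, and the other 4 not called, and they included Csf3r at 1.61 (adjusted p = 0.000148), Csf2rb at 1.07 (adjusted p = 0.000165) and Il6ra at 1.01 (adjusted p = 6.68e-06). Jak2 rose from 19.7 ± 0.24 to 90.1 ± 3.67 TPM, and Tyk2 rose by 1.19 (adjusted p = 2.08e-06). Stat2 rose from 42.8 ± 2.07 to 116 ± 1.19 TPM and Stat5a from 16.3 ± 1.36 to 27.9 ± 0.592 TPM.

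Of 9 cytokine targets 5 rose and 2 fell. Gbp2 rose from 1.24 ± 0.209 to 12.4 ± 2.29 TPM and Irf1 from 18.1 ± 1.08 to 57.8 ± 5.24 TPM. Both are interferon-responsive genes, as is Cxcl10, which rose by 1.20 (adjusted p = 7.03e-07). The ligand gene Ifnb1 was lower in the knockout, at 35.7 ± 1.4 TPM in wildtype and 13 ± 1.1 TPM in knockout libraries. A link between Ifnb1 and these targets was not tested. Among 10 other inhibitors Usp18 rose by 1.09 (adjusted p = 1.57e-06), Sh2b3 fell by 0.87 (adjusted p = 6.11e-06) and Ptpn1 fell by 0.62 (adjusted p = 0.00158). Of the ligase genes Rnf7 fell by 0.41 (adjusted p = 0.00016) and Cul5 rose by 0.11 (adjusted p = 0.0479), a call lost under median-of-ratios scaling at 0.05.

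Markers of other cell types differed between the J774.1 groups as well. Summed dendritic markers were 0.856 to 1.68 TPM in wildtype and 5.99 to 9.02 TPM in knockout libraries, with 1 and 2 of 6 markers at 0 throughout. Summed neutrophil markers were 0.474 to 0.92 and 3.67 to 5 TPM, with 5 of 8 at 0 throughout in each. Most of the neutrophil sum in each group was Csf3r, the receptor gene given above, at 0.55 ± 0.221 TPM in wildtype and 3.72 ± 0.486 TPM in knockout libraries. Macrophage markers summed to 1516 to 1536 and 1588 to 1704 TPM, and the part of these differences in the results on Cish and Socs1 was not tested.

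The J774.1 and BMDM tables were normalized separately, so their levels are set side by side only. With LPS, Socs3 made up 70.6% of the family in wildtype J774.1 and 78% in control siRNA BMDMs. Cish stood at 4.42 ± 1 TPM in wildtype J774.1 and at 35.6 ± 15.7 TPM in control siRNA BMDMs. The Cish estimates, with a pseudocount of 1, were −1.39 for the double knockout in J774.1 and 0.96, not called, for Ctbp2 siRNA in BMDMs. The difference between these estimates, which come from other cells and other perturbations, was not tested.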

How the data were processed

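Gene-level TPM for 24 polyadenylated RNA libraries were deposited by the authors, made with Salmon per the submitters' processing notes (Salmon 1.9.0, DESeq2 1.44.0, R 4.4.1). Column headers of the BMDM table name mm39, and the notes list mm39, GRCm38 and GRCm39 without roles. The authors' deposited comparison tables hold mean normalized counts (a signal), log2 fold changes and adjusted p-values. Read depth per library is not given in the sources used here, so no counting interval was made. TPM sums were 999839 to 999944 per BMDM library and 999503 to 999526 per J774.1 library, after 190 repeated J774.1 identifiers with identical values were read once.

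Values were analysed as log2(TPM + 1) with limma 3.58.1 in R 4.3.3 (linear fit, empirical Bayes with trend and robust options). Genes needed a mean of 1 TPM, a minimum chosen so that low members entered. The 18 BMDM libraries were fitted together and the 6 J774.1 libraries alone, with Benjamini-Hochberg adjustment over all genes tested at 0.05. The fit was run on simulated independent libraries with changes added to a single group. That simulation had no replicate structure and no outlying library, so it does not bear on results that depend on these. The named genes are all 8 members, the targeted genes, up to 3 called pathway genes with the largest change per role and comparison, and the 3 nearest genes of each member called with LPS. Exceptions are Csf2 with Ctbp2 siRNA in BMDMs and pathway genes whose call changed under an alternative (Csf2ra, Il10, Il10rb, Il6, Il12b, Ebi3 and Il2rg), named after their values were seen, and 1 pathway gene that is counted but not reported here. Members and lists were chosen with earlier results of these data known. Alternatives were the pseudocount, the minimum, median-of-ratios scaling, fits on the groups compared only, a replicate block, and each library left out.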

Additional observations from a re-analysis of the deposited data

How the results depend on the processing

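The LPS calls of Socs1, Socs3, Socs6 and Cish held in all 3 siRNA arms under every alternative that gave a value (Socs1 fell under the minimum of 10 TPM). Socs4 turned from lower to 0.032 (control siRNA) and 0.0214 (Ctbp1 siRNA) under median-of-ratios scaling. For Ctbp2 siRNA against control siRNA with LPS, the count of members called was 1 with a pseudocount of 5 and ran from 0 to 2 over fits that each left out 1 library. For Ctbp2 against Ctbp1 siRNA with LPS it ran from 0 to 3. The cause was not tested. Of 84 member differences, 26 were never called and had at least 1 alternative of the other sign (68 of 643 values, lowest adjusted p 0.537). A replicate block left the count of members called as it was in every comparison (7, 6 and 7 for LPS, 4 for the knockout, 0 elsewhere). Same-numbered libraries correlated above 0.1 in 6 of 45 BMDM pairs and 0 of 3 J774.1 pairs. For BMDM pairs with different numbers it was 1 of 90. The median r was 0.055 for the same and −0.02 for different numbers in BMDMs. The main fit did not take the numbers as pairing. As a hint from the data, all 18 BMDM libraries and 4 of 6 J774.1 libraries correlated best with their own number. Under the block, genes called rose from 236 to 414 for Ctbp2 siRNA against control siRNA with LPS, from 436 to 821 for Ctbp2 against Ctbp1 siRNA with LPS, and in vehicle from 69 to 155 and from 75 to 143.

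Counts over all genes moved most where few genes were called. Leaving out 1 library gave 5 to 38 genes for Ctbp1 siRNA in vehicle (13 in the full fit), 6 to 83 with LPS (7), 4 to 105 for Ctbp2 siRNA in vehicle (69), 66 to 295 with LPS (236), 25 to 121 for Ctbp2 against Ctbp1 siRNA in vehicle (75) and 117 to 1050 with LPS (436). The highest count came without control LPS replicate 4 in 5 of these 6 comparisons, and without control LPS replicate 3 for Ctbp2 siRNA against control siRNA with LPS. The lowest came without Ctbp1 siRNA vehicle replicate 1 (5), control LPS replicate 1 (6), control vehicle replicate 3 (4), Ctbp2 siRNA LPS replicate 3 (66), Ctbp1 siRNA vehicle replicate 4 (25) and Ctbp1 siRNA LPS replicate 4 (117). Fits on the groups compared alone called 4 genes for Ctbp2 siRNA with LPS and 52 for Ctbp2 against Ctbp1 siRNA with LPS, and fits with no minimum called 132 and 227. For the change of the LPS response, leaving out 1 library gave 0 to 4 genes with Ctbp1 siRNA (0) and 0 to 13 with Ctbp2 siRNA (4), highest without control LPS replicate 4. No read counts were used, so the limits that depth sets were not measured. The counts of pathway genes under median-of-ratios scaling and without control LPS replicate 4 were added after seeing the data, and Rnf7 turned from lower to 0.21 with LPS under that scaling.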
